A study of Mus musculus with 44 samples.

Results

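The set comprised 9 tendon-type genes, Fmod, Kera, Chad, Comp, Thbs4, Cilp, Angptl7, Tnmd and Mkx, which were picked by symbol from the 12707 gene symbols of the expression table. All 9 were measured. They were chosen with their values in these cells already known, so their levels are given as a description and no test was made. The 44 cells carried the Tomato label and were isolated singly from the hindlimb muscles of adult C57BL/6 mice with the genotype Prrx1-CreERT;Tomato. Their Cre recombinase is driven by Prrx1, a homeobox gene of limb mesenchyme, and on exposure to tamoxifen it turns on the red fluorescent protein. Every mouse was given tamoxifen at 2 mg daily over 3 days, so the cells formed a single group with no untreated or unlabelled reference. Dissociated tissue was sorted for the label and cells were then picked one at a time under a microscope, and no row for the label itself was used here. The labels name no animals, and the 44 cells therefore count as 1 sample, without p-values.

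Tendon joins muscle to bone through parallel fibrils of type I collagen, and its tissue continues into connective sheets that reach into the muscle belly. Small leucine-rich proteoglycans coat the fibrils and control their thickness, and proteins of the thrombospondin family bridge fibrils, other matrix proteins and cell surface receptors. The transcription factors scleraxis and Mohawk drive the tendon programme in development, and tenomodulin is a membrane protein typical of mature tendon cells. Scleraxis (Scx) was not analysed here.

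Values are log2(FPKM + 1), where FPKM is a fragment count corrected for transcript length and library size, so levels can be set side by side between genes. A gene is called held by a cell at a value of 5 or more, which is an FPKM of 31. Every cell had between 1531 and 1540 rows at this value, which means that the values had been brought to a shared distribution before deposit and that sequencing depth is unknown. A value thus says how a gene ranked within its cell more than how much RNA the cell held. Cells are called by the numbers in their labels.

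Low values of a gene were shared between particular cells. By the rank correlation of genes outside the lists, 173 pairs of cells stood apart as linked, and 38 cells had 8 links each, within a range of 2 to 9. Among 369 genes that were strong in a single cell, 80.7% of the values in linked cells were above 0, against 23% of those in unlinked cells. The estimated rate, a median over the values in linked cells, was 0.288% of the strong cell's signal. The threshold of 5 had been chosen with earlier results of these data known. It also entered the choice of the 369 genes, which were under 5 in all other cells. Each value was also set against the signal expected from the linked cells at that rate. A second count takes values that reach FPKM 1 and exceed this linked-cell expectation by more than 5 times.

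The genes that set the pattern were Fmod, Thbs4, Comp, Chad, Angptl7 and Tnmd, with Kera standing apart from them, and the sequences before their start sites are shown where the reference table had them. The table held 7 of the 9 genes, without Comp and Mkx. Each sequence is the 250 bases upstream of the RefSeq start on the coding strand in build GRCm38.p6, in lower case, with every E-box (CANNTG, a motif that is the same on both strands and is bound by helix-loop-helix factors such as scleraxis) in capitals. The windows are chr1:134037004-134037253 on the plus strand for Fmod, chr13:92794819-92795068 on the minus strand for Thbs4, chr4:148500463-148500712 on the minus strand for Angptl7, chr11:94564797-94565046 on the plus strand for Chad, chrX:133850758-133851007 on the plus strand for Tnmd and chr10:97606955-97607204 on the plus strand for Kera. RefSeq starts can differ from those of the GENCODE annotation used for the gene spans given later: the whole Kera window and the last bases of the Tnmd window lie within those spans.
Fmod: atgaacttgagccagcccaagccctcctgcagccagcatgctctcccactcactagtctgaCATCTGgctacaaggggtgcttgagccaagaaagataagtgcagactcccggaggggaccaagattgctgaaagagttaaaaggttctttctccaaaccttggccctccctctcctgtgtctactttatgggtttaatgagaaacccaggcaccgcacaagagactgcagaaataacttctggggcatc
Thbs4: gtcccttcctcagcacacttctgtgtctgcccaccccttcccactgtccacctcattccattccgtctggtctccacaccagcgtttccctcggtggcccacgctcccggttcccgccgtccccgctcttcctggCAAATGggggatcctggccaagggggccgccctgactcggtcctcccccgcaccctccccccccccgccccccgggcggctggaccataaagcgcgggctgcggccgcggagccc
Angptl7: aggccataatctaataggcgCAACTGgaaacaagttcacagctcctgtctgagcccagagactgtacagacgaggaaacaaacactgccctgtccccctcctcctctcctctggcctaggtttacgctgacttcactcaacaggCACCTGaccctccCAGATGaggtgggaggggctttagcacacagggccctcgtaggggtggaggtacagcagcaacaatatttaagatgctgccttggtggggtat
Chad: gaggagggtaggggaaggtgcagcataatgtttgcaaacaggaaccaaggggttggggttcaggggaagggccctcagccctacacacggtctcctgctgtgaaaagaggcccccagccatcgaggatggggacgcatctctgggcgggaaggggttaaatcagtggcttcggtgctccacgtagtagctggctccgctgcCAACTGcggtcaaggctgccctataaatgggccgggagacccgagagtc
Tnmd: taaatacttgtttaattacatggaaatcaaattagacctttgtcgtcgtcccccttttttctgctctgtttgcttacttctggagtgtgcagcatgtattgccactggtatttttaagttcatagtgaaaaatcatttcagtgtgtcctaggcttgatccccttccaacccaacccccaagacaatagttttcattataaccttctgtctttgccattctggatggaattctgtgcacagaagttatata
Kera: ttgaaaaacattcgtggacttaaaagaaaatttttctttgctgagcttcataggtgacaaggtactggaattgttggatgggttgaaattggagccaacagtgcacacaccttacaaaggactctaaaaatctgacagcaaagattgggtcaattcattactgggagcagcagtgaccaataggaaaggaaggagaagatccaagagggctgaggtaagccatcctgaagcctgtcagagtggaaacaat

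An E-box was found in 5 of the 7 members' sequences, Fmod, Thbs4, Angptl7, Chad and Cilp, and in 66.0% of the 27025 promoters of the same length. The E-box CAGATG, a subset of the first motif searched on both strands, was in Fmod and Angptl7 and in 14.5% of promoters. The Smad-type element CAGACA, on either strand, was in Thbs4 and Angptl7 and in 17.1% of promoters. The Egr-type motif GCGNGGGCG was in 0 of the 7 and in 4.65% of promoters, and TATAAA was in Chad and in 13% of promoters. GC content ran between 38.4% upstream of Tnmd and 70.8% upstream of Thbs4. A match is only a description of these letters.

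Fibromodulin, encoded by Fmod, is a leucine-rich proteoglycan that binds collagen fibrils and limits their thickness. The gene spans chr1:134037254-134048277 on the plus strand (GRCm38, GENCODE annotation) and has 3 exons. Its lowest, median and highest values were 0.00, 5.08 and 13.05, and it was held by 23 of 44 cells (52.3%, exact Clopper-Pearson 95% interval 36.7 to 67.5%, for counting error only). It was the only member held by at least 22 cells, as were 5.25% of all symbols. Cells 40, 17 and 8 carried its highest values, 13.05, 12.70 and 12.32, and the next was 9.65 in cell 5. The values ran on across the threshold without a gap, with 5.06 in cell 38 just inside and 4.76 in cell 18 just outside. Only 11 cells were at 7 or more (FPKM 127), and 17 cells passed the second count. In cells 37, 38 and 43, where Fmod was 5.10, 5.06 and 5.14, it was 1.31, 1.24 and 1.38 times the signal expected from their linked cells, which include cell 40. The part of carried signal in those values was not tested.

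Keratocan (Kera) and chondroadherin (Chad) belong to the same leucine-rich repeat superfamily, keratocan as a proteoglycan of cornea and tendon and chondroadherin as a collagen- and integrin-binding protein of cartilage. Chad, at chr11:94565047-94569127 on the plus strand, had a median of 2.56 and was held by 8 cells (18.2%, 8.19 to 32.7%). Its values in cells 8, 17 and 40 were 5.30, 11.76 and 12.55, and cells 10 and 26 had 8.51 and 7.01. Chad therefore separated cells 17 and 40 by more than 3 log2 units from every other cell, while cell 8 ranked sixth. Kera, at chr10:97606879-97613692 on the plus strand, was the sparsest of the set in level, with a median of 0.00 and 31 cells at 0. It was held by 2 cells (4.55%, 0.555 to 15.5%), cells 22 and 26, at 6.35 and 6.26, and the next value was 2.63 in cell 14. Kera was at 0 in cells 8, 17 and 40, so the cells highest for the other matrix genes of the set were not those that held it.

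Comp and Thbs4 encode members of the thrombospondin family, multimeric calcium-binding matrix proteins, and thrombospondin 4 is known from the junction of muscle and tendon. Thbs4, at chr13:92751590-92794818 on the minus strand with 22 exons, had lowest, median and highest values of 0.54, 3.64 and 12.10 and was held by 14 cells (31.8%, 18.6 to 47.6%). Its 4 highest cells were 8 and 12, each at 12.10, then 17 at 11.82 and 40 at 11.61, and no other cell passed 8.28. Comp, at chr8:70373558-70382066 on the plus strand with 19 exons, had a median of 2.00 and was held by 7 cells (15.9%, 6.64 to 30.1%). Its values were 10.56, 11.01 and 11.52 in cells 8, 17 and 40, and the highest of the other cells was 7.62 in cell 33. Cell 12 thus matched cells 8, 17 and 40 in Thbs4 and stood at 1.60 in Comp.

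Cilp encodes a cartilage intermediate layer protein, a matrix glycoprotein that binds TGF-beta, and Angptl7 a secreted angiopoietin-like protein. Cilp, at chr9:65265180-65280605 on the plus strand, had a median of 3.19 and was held by 15 cells (34.1%, 20.5 to 49.9%). It was the most widely held member after Fmod and had its highest values in cells 6 and 12, at 11.12 and 10.99. Cells 8, 17 and 40 had 9.58, 10.31 and 7.66, ranks 6, 3 and 10 of 44. Angptl7, at chr4:148495183-148500460 on the minus strand, had a median of 2.57 and was held by 11 cells (25%, 13.2 to 40.3%). It reached 11.48, 12.42 and 11.15 in cells 8, 17 and 40, the 3 highest of 44, and cell 12 followed at 9.60.

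Tnmd, the tenomodulin gene at chrX:133850980-133865577 on the plus strand, had a median of 0.79 and was held by 5 cells (11.4%, 3.79 to 24.6%). These were cells 8, 17 and 40 at 7.33, 8.54 and 9.37, with cell 7 at 8.35 and cell 11 at 6.39. The other 39 cells did not hold Tnmd, and cell 7 ranked between cells 8 and 17 for it. The transcription factor gene Mkx, at chr18:6934518-7004780 on the minus strand, was held by 1 cell (2.27%, 0.0575 to 12%), cell 17, at 9.42. Cell 8 was next at 3.92 and cell 40 was at 0.37, with a median of 0.53 over the 44 cells. Kera and Mkx were the members held by under 10% of cells, as were 66.4% of all symbols.

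**Figure D1:**
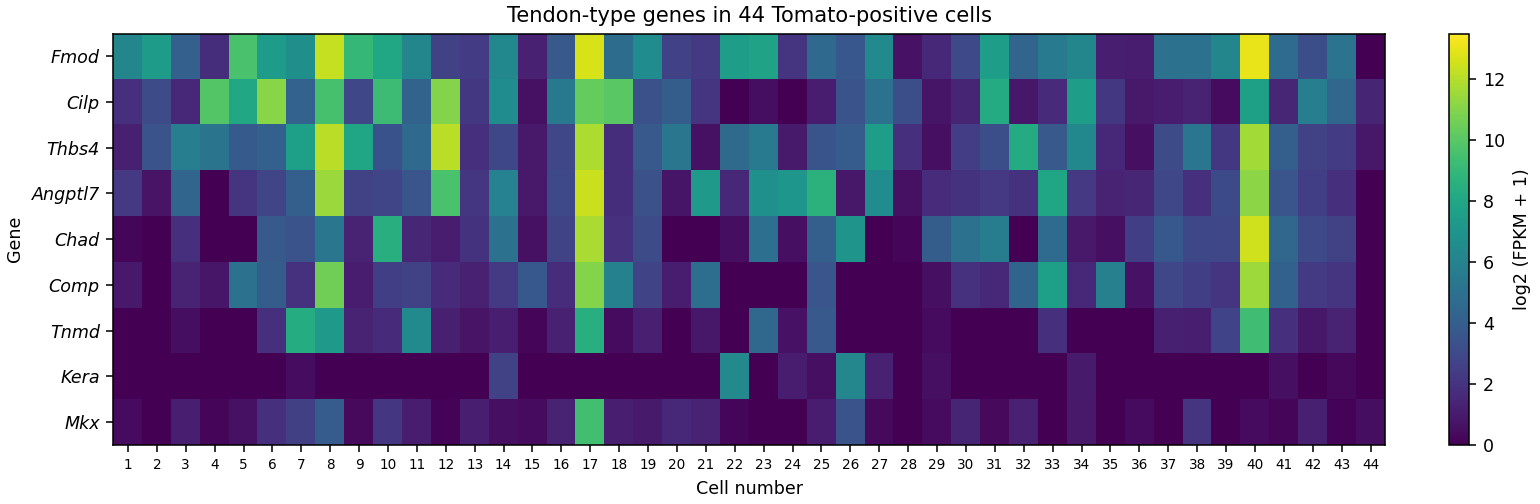
Values of the 9 tendon-type genes in each of the 44 cells, with genes as rows, cell numbers along the horizontal axis and log2(FPKM + 1) as colour. Cells 8, 17 and 40 are bright in Fmod, Thbs4, Angptl7 and Comp, while Kera is at 0 in all of these and Mkx is bright in cell 17 alone.

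Cells that held several members were few. At the threshold of 5, 7 cells held no member, 16 cells held 1, 8 held 2, 8 held 3 and 2 held 4. Cells 8 and 40 held 7 each, and cell 17 held 8. No cell held 5 or 6 members. A total of 13 cells (29.5%, 16.8 to 45.2%) held at least 3, namely cells 5, 7, 8, 10, 12, 14, 17, 23, 27, 31, 33, 34 and 40. Over all cells 86 member values reached the threshold (21.7%, against 12.1% of all values in the table), and 22 of these were in cells 8, 17 and 40. The members were chosen in part for these values, so nothing is read from the difference. For 7 of the 9 members the highest of the 44 values was in one of cells 8, 17 and 40, as it was for 9.31% of the symbols held by any cell, which the choice of members fixes in part. For Thbs4, cell 12 shared the highest value with cell 8.

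A score was formed for each cell as the sum, over the members, of the value above 5. It was 33.66 in cell 8, 47.99 in cell 17 and 41.90 in cell 40, and the next was 17.69 in cell 12. Cell 12 held Thbs4, Angptl7 and Cilp at 12.10, 9.60 and 10.99 but had Fmod at 2.66, Comp at 1.60, Chad at 1.10 and Tnmd at 1.17. Cells 14 and 27 held 4 members each, all at modest levels: no member passed 6.59 in cell 14 or 7.51 in cell 27. By the second count cells 8, 17 and 40 had 8, 8 and 7 members, and the highest of the other cells had 6 (cell 26). In cell 14 this count fell to 2, since its Fmod, Chad and Angptl7 were 3.89, 3.25 and 3.76 times the signal expected from its linked cells. The expectation rests on a median rate and can exceed the measured value. In cell 15, Fmod, Thbs4, Chad and Angptl7 were 0.0392, 0.04, 0.0516 and 0.0357 times the expected signal, while Comp was 1.15 times it.

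**Figure D2:**
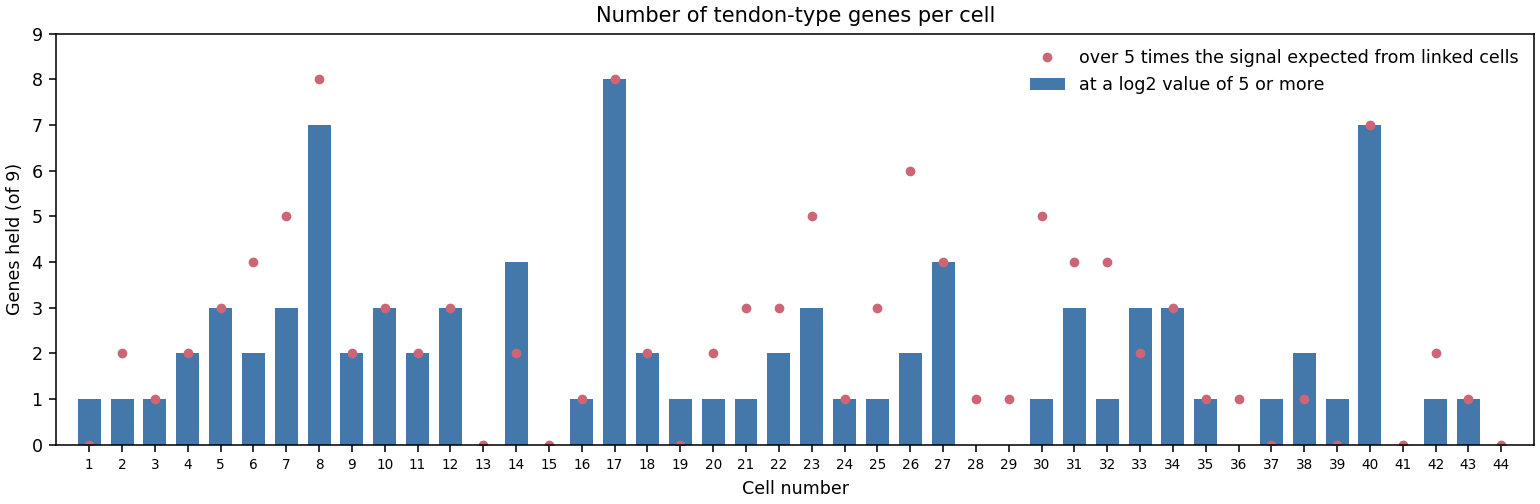
Number of the 9 genes held by each cell at a log2 value of 5 or more (bars), and number that passed the second count, above 5 times the linked-cell expectation (points), by cell number. Bars reach 7, 8 and 7 in cells 8, 17 and 40 and at most 4 elsewhere, while the points reach 6 in cell 26.

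Cells 8, 17 and 40 were not linked to one another. Cell 8 was linked to cells 1, 6, 7, 9, 10, 11, 12 and 15. Cell 17 was linked to cells 3, 10, 13, 14, 15, 16, 18 and 19. Cell 40 was linked to cells 25, 33, 37, 38, 39, 41, 42 and 43. Their high values were also far over the expected signal: Fmod exceeded it 1470-fold in cell 8, 4690-fold in cell 17 and 10600-fold in cell 40. Of the 86 member values at 5 or more, 74 exceeded the linked-cell expectation by more than 5 times, and 9 of the remaining 12 were Fmod values.

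Below the threshold the picture was different. Of 310 member values under 5, 172 were at FPKM 1 or more, and only 34 of those exceeded 5 times the expected signal. Comp was above 0 in 29 of 31 cells linked to a cell that held it (median 1.92), against 1 of 6 unlinked cells (median 0.00). Chad showed the same split, with 29 of 32 linked cells above 0 against 0 of 4 unlinked cells. Tnmd was above 0 in 20 of 22 linked cells and 5 of 17 unlinked cells, and Kera in 7 of 10 linked cells and 4 of 32 unlinked cells. These counts include values that round to 0.00. Cell 44 had FPKM 0.000902 for Comp, Chad, Tnmd and Kera, and cell 30 had 0.000546 for Tnmd and Kera. The only unlinked Comp value above 0 was that of cell 44. Mkx showed less of a split, above 0 in 8 of 8 linked cells and also in 27 of 35 unlinked cells. Fmod, Thbs4, Angptl7 and Cilp had at most 1 unlinked cell below the threshold, so no split could be seen. Around single cells the split was not uniform: the median of Chad was 1.35 in cells linked to cell 8 and 2.59 in those not linked, 2.38 and 2.53 for cell 17, and 3.35 and 1.44 for cell 40. Low levels of Comp, Chad, Tnmd and Kera moved with links to any cell that held them, and the part of the links in any single low value was not tested.

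**Figure D3:**
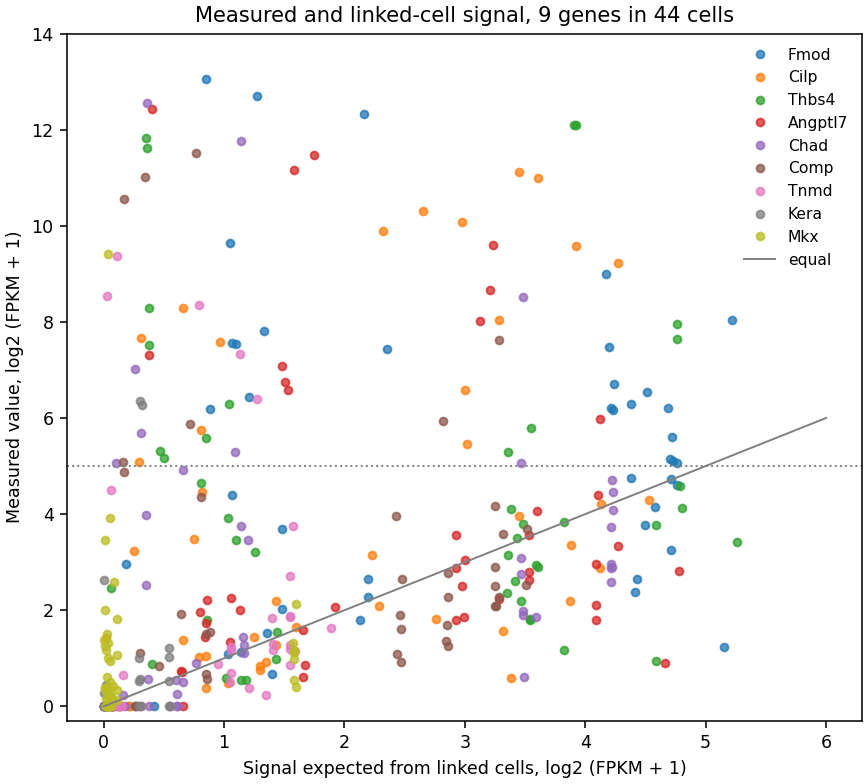
Measured value of each gene in each cell (vertical axis) against the signal expected from its linked cells (horizontal axis), both as log2(FPKM + 1), coloured by gene, with the line of equality and a dotted line at 5. Most values under 5 lie in a band about the line, while the Fmod values of 12.32, 12.70 and 13.05 in cells 8, 17 and 40 stand far above it.

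Of the 36 pairs of members, 29 were held together by more cells than the number expected from their separate shares. Mkx was held by cell 17 alone, so its pairs with the other members of that cell were above expectation by construction. Each had 1 shared cell, against 0.114 to 0.523 expected. All 21 pairs that involve neither Kera nor Mkx were above expectation. Cells 8, 17 and 40 each held every member of these pairs, so each pair shared at least these cells. The members were chosen with these values known, and the share over pairs of all symbols was not computed. Nothing is therefore read from these counts. Comp and Chad were held together by 3 cells against 1.27 expected, Comp and Tnmd by 3 against 0.795, Chad and Tnmd by 3 against 0.909 and Angptl7 and Tnmd by 3 against 1.25. In each of these 4 pairs the 3 cells were 8, 17 and 40. Fmod, the most widely held, was shared more broadly, with Thbs4 in 9 cells against 7.32 expected and with Cilp in 10 against 7.84. Outside cells 8, 17 and 40, 16 of the 36 pairs were still held together by at least 1 cell. Kera met other members in cells 22 and 26, with Fmod in the first and Chad in the second, and was held with neither Thbs4, Comp, Angptl7, Tnmd nor Cilp.

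As a description across 44 cells, which share linked libraries and a forced value distribution, Spearman's rho between Angptl7 and Tnmd was 0.73. It was 0.66 over the other 41 cells once cells 8, 17 and 40 were left out. No cell of those 41 held both genes. Between Fmod and Thbs4 rho was 0.58, and 0.50 over those 41, of which 6 held both. Between Comp and Thbs4 it was -0.04 over the 41 cells. Cells linked to cells 8, 17 and 40 stayed among the 41, so leaving out cells 8, 17 and 40 did not take out the links. The part of the links in these rho values was not tested.

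Of 6288 symbols held by at least 3 cells, the one most like the score over 44 cells was Ptx4, a pentraxin gene, with a Pearson r of 0.90. Its values were 8.19, 9.62 and 9.40 in cells 8, 17 and 40, and no other cell passed 2.19, so it was held by these 3 cells alone. Next came Fscn1, which encodes the actin-bundling protein fascin, with an r of 0.83, Foxj2, a forkhead transcription factor gene, with 0.76, and Thbs1, another thrombospondin gene, with 0.75. Thbs1 stood at 9.65, 12.10 and 10.56 in cells 8, 17 and 40 and at most at 7.35 elsewhere. The other symbols among the 15 most alike, at an r between 0.60 and 0.72, were Ass1, Col8a1, F2r, Col16a1, Pth1r, Txndc16, Elmo1, Mfap4, Zfp266, Pigs and Ccdc3. They include the chain genes of collagens VIII and XVI, Mfap4 for a microfibril-associated protein, F2r for the thrombin receptor and Pth1r for the parathyroid hormone receptor. Mfap4 reached 7.53, 12.01 and 9.61 in cells 8, 17 and 40, while Pth1r reached 9.13 and 7.64 in cells 17 and 40 and was at 0.00 in cell 8. The median r over all ranked symbols was -0.03. By Spearman's rho with the score, Ptx4 was not among the 15 symbols most alike. Of the 6288 ranked symbols, which leave out the members, 6 had cells 8, 17 and 40 as their 3 highest. These were Fads1, Foxj2, Itgbl1, Prelp, Ptx4 and Thbs1. The count for other sets of 3 cells was not computed.

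Each member also had its own nearest symbols by Spearman's rho over the 44 cells. Tnmd was nearest to Ptx4 at 0.78 and to the zinc finger gene Zfp266 at 0.66, followed by Dars, Gamt and Dzip1. Chad was nearest to Ptx4 and Taf11 at 0.62, then Ccdc3, Hdgfrp2 and Erbb2ip. Comp was nearest to Arhgef17 at 0.59, followed by Tor1b, Zfp266, Ptx4 and Nkap, each at 0.58. Ptx4 was among the 5 nearest of Comp, Chad and Tnmd, and also of Angptl7, whose others were Ctr9, Zfp266, Anks1 and Ccdc6. Ptx4 was held by cells 8, 17 and 40 alone, and these members were chosen with their values in those cells known. Its return for several members is thus in part fixed by the choice, and nothing is read from it. Fmod was nearest to Fnbp1 at 0.56, then Eif3c, C1qtnf7, Brcc3 and Rbm42, and Thbs4 to Eif4a3 at 0.66, then Fibin, Ikzf4, Znhit3 and Prpsap1. Cilp was nearest to Prss57 at 0.60, then Ddx10, Tob2, Col8a1 and Cyb5r1.

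Other matrix genes of tendon were not uniformly high in the cells that held most members. Of 15 further tendon matrix and processing genes held by any cell, cells 8, 17 and 40 were among the 3 highest of 44 for 4, 3 and 6, against 5.92%, 7.18% and 6.92% of all symbols held by any cell. Itgbl1, an integrin beta-like secreted protein gene, was at 9.99, 8.78 and 10.50 in cells 8, 17 and 40, over a median of 2.46 in the 44 cells. Cpxm2, for a carboxypeptidase-like protein, was at 8.64, 7.43 and 8.33, over a median of 1.43. Abi3bp, for an extracellular matrix protein, was at 5.17, 9.36 and 7.95, and Tnc, for tenascin C, was at 0.00, 5.17 and 0.29 and was held by cell 17 alone. Prg4, for the joint and tendon surface lubricant lubricin, was at 12.19, 9.51 and 11.17 over a median of 9.17, and its highest value, 14.95, was in cell 18. Other genes of the list were below their medians in all of these cells: Pcolce2, for a procollagen-processing enhancer, was at 1.44, 5.29 and 4.70 over 7.47, and Dpt, for dermatopontin, at 2.01, 5.47 and 5.01 over 8.36. Tgfbi was at 3.53, 4.88 and 6.57 over 6.68, and Htra1, a secreted protease gene, at 0.93, 0.00 and 0.53 over 1.37.

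Paralogues of the members also differed among themselves. Thbs2 was at 10.81, 9.87 and 12.01 in cells 8, 17 and 40 over a median of 5.70, whereas Thbs3 was at 2.03, 1.22 and 3.64 over a median of 2.46. Among the leucine-rich proteoglycans, Prelp was at 11.26, 11.89 and 10.44, its 3 highest cells, over a median of 7.68. Lum, for lumican, was instead at 2.29, 5.15 and 5.41 over a median of 7.93, and Bgn, for biglycan, at 9.16, 5.82 and 6.55 over 8.62. Decorin (Dcn) was not analysed here.

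Chromosomal neighbours of the proteoglycan genes were compared cell by cell. Prelp lies 116 kb from Fmod, and both were held by 21 cells, with a rho of 0.07 over the 44 cells. Lum lies 34.2 kb from Kera, and the 2 cells that held Kera also held Lum, which 32 cells held, with a rho of -0.26. Epyc, 30.4 kb from Kera, was held by 0 cells.

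The collagens of the tendon fibril showed a mixed picture in the same 3 cells. Col1a1 and Col1a2, the chains of type I collagen, were at 10.35 and 11.12 in cell 8, at 9.12 and 9.20 in cell 17 and at 6.24 and 9.96 in cell 40, over medians of 7.16 and 8.96. Col11a1, a chain of the minor fibril collagen XI, was at 3.87, 6.25 and 5.42 in cells 8, 17 and 40, with a median of 0.00, and cells 17 and 40 were the only cells that held it. Col12a1, of the fibril-associated collagen XII, was at 5.65, 7.05 and 0.00. Col3a1, of the finer fibrils of loose connective tissue, was at 4.97, 6.25 and 5.12 over a median of 9.08, ranks 41, 37 and 40 of 44, and Col14a1 was at 1.40, 3.00 and 1.57 over 5.37.

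Regulators of the tendon programme were spread unevenly over cells 8, 17 and 40. Of 12 measured tendon transcription factors other than Mkx, cell 8 held 1, cell 17 held 6 and cell 40 held 3, against a median of 2 per cell and 12.1% of all symbols held in each of these cells. Cell 17 was among the 3 highest of the 44 cells for 5 of them, as for 7.18% of the symbols held by any cell. Six2, Etv5, Egr2 and Gtf2ird1 had their highest value of the 44 cells in cell 17, at 6.76, 7.28, 5.70 and 6.65, and Eya2 had its highest in cell 40, at 9.66. Egr1, an immediate early gene that is also tied to tendon and load, was at 11.44, 9.07 and 8.39 in cells 8, 17 and 40 over a median of 7.25. Of 10 measured genes of load sensing and matrix adhesion, cells 8, 17 and 40 held 2, 5 and 3, against a median of 2. Ctgf and Cyr61, targets of the load-responsive YAP pathway, were at 9.23 and 11.52 in cell 8, 9.53 and 11.56 in cell 17 and 7.56 and 8.43 in cell 40, over medians of 2.52 and 6.16, whereas Ankrd1, another target, was at 0.00 in all of these cells and was held by 0 of 44. Of the TGF-beta pathway, which induces tendon genes, 16 genes were measured and cells 8, 17 and 40 held 4, 5 and 4, against a median of 4. Tgfbr3, a coreceptor, was at 4.70, 9.33 and 9.32, the ligand gene Tgfb3 at 5.69, 7.93 and 1.08, and Smad7, an inhibitor, at 0.00, 0.38 and 8.34. The receptor gene Tgfbr2 was instead at 5.70, 3.26 and 3.57 over a median of 7.14. The mechanosensitive channel gene Piezo2 was at 0.44, 7.68 and 0.00.

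Markers of fibro-adipogenic progenitors, the interstitial fibroblasts of muscle, had a lower mean in cells 8, 17 and 40 than in the median cell, though not every marker was low. Of the 10 measured, cells 8, 17 and 40 held 2, 8 and 7, with a mean value over the list of 4.0, 6.61 and 5.86, while the median cell held 8.5 with a mean of 8.56. Clec3b was at 0.88, 2.19 and 2.02, the 3 lowest values of the 44 cells, over a median of 6.61. Cd34 was at 2.75, 5.26 and 4.85 over a median of 9.07, and Pdgfra, the receptor used to sort these progenitors, was at 1.33, 3.72 and 4.12 over 6.47. Ly6a, which encodes Sca-1, was at 5.68, 10.71 and 6.48 over 11.82. Mfap5 was at 3.64, 9.46 and 5.5 over 9.78 and Pi16 at 4.16, 5.48 and 6.77 over 6.88. Mfap5 in cell 17 and Pi16 in cell 40 were thus near their medians. Serpinf1 went the other way, at 12.55, 12.32 and 13.32 over a median of 10.95. Prrx1, whose promoter drives the Cre recombinase, was at 4.96, 2.66 and 7.95 over a median of 5.11, with cell 40 the highest of the 44 cells.

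**Figure D4:**
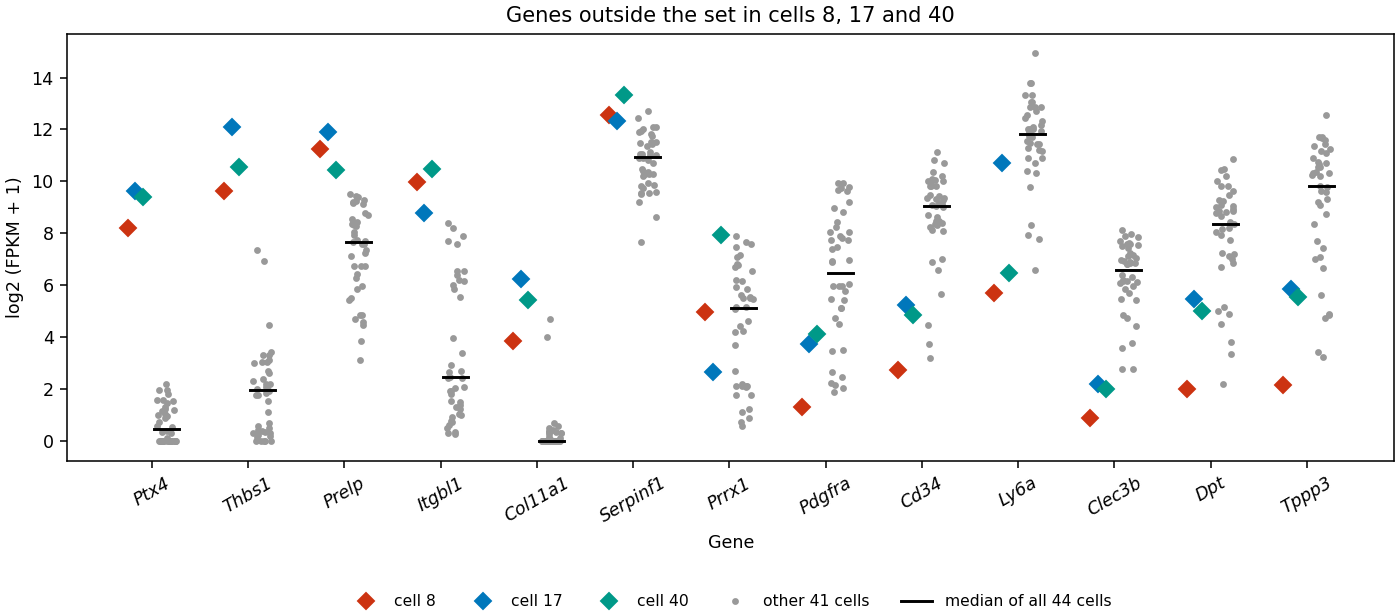
Values of 13 genes outside the set as log2(FPKM + 1), with cells 8, 17 and 40 as coloured diamonds, the other cells as grey points and the median of all 44 cells as a bar. Ptx4 separates the diamonds, at 8.19, 9.62 and 9.40, from grey points that reach 2.19, while Clec3b, at 0.88, 2.19 and 2.02, is lowest in the same cells.

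Markers of other cell types that such a digest could hold were also counted in cells 8, 17 and 40. Of the chondrocyte list only Sox9 and Sox5 were measured, which leaves cartilage cells untested by their defining matrix genes, since Col2a1 and Acan were not analysed here. Sox9 was at 0.15, 0.00 and 0.00 and Sox5 at 0.00, 0.00 and 4.17 in cells 8, 17 and 40. None of the 6 osteoblast, 7 endothelial, 8 leukocyte, 3 perineurial or 4 glial markers measured was held by these cells. The median cell also held 0 markers of each of these lists. In the whole set, 5 of the osteoblast, 7 of the endothelial and 6 of the leukocyte markers were held by 0 cells. The same was true of 1 perineurial and 1 glial marker. Nothing is therefore read from their absence in cells 8, 17 and 40. Of 9 mural cell markers, cells 8, 17 and 40 held 3, 3 and 1, against a median of 1 and a highest of 8, with Acta2 at 5.28, 9.75 and 9.01. Of 10 myofibre markers they held 2, 0 and 2, against a median of 1, and Ckm had its highest value, 9.10, in cell 40. Of the satellite cell list, Pax7, Myod1 and Myf5 were not analysed here, which leaves satellite cells untested by these genes. Of 3 satellite cell markers measured, Chodl was at 8.25 in cell 8 and was held by no other cell. Megf10 was at 3.00, 0.00 and 5.57 in cells 8, 17 and 40 and was held by cell 40 alone, and Msc was at 0.00, 0.00 and 1.00. Of 6 sheath and synovial markers they held 1, 2 and 2, against a median of 2. Within that list Tppp3 was at 2.17, 5.85 and 5.56 over a median of 9.82, while Prg4 was above its median in all of these cells. The part of RNA from other cells in these values was not tested.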

How the data were processed

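The authors deposited 1 table of log2 FPKM values for 12745 rows and 44 cells. GRCm38, TopHat2 and Cufflinks were used, per the submitters' processing notes, with versions not given in the sources used here. No source used here describes the step that gave all cells one distribution, and base 2 was inferred from the values. Reference names were found for the gene IDs of 12711 rows, 18 symbols written as dates were restored, and repeated symbols were reduced to their row of highest mean, leaving 12707. Python 3.11.15, pandas 2.3.3, NumPy 2.4.6, SciPy 1.17.1 and Matplotlib 3.10.9 were used.

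The members, the 20 gene lists and the threshold of 5 were chosen with earlier results of these data known. The text names the members, the 5 symbols nearest to each member held by at least 3 cells, the 15 nearest to the score, up to 5 genes per list, fixed paralogues and surface markers, and list genes with a top rank of 3 in cells holding at least 4 members. Some of these are not printed. Clec3b, Col14a1, Prg4, Pcolce2, Tgfbi, Htra1 and Ankrd1 were chosen after their values were seen. Links between cells came from rank correlations with a threshold of 0.54 by Otsu's method. Sequences are from RefSeq. The link step was tested on simulated data. Doublets were not called. The lowest values, at or near 0, are read as listed, since depth is unknown. Thresholds, scaling, repeated rows and the likeness measure were varied.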

Additional observations from a re-analysis of the deposited data

How the results depend on the processing

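The 13 cells that held at least 3 members became 44 with any value above 0, 41 at a log2 value of 1, 25 at 3 and 5 at 7. They became 6 with Fmod left out, and 21 cells held at least 2 members and 5 at least 4. The second count gave 18 cells, rescaling each cell to a sum of 1000000 gave 17 and keeping the first row of repeated symbols 13. Members held by cells 8, 17 and 40 stayed at 7 or 8 each under rescaling. At a log2 value of 1 cells 8 and 17 held 8 members and cell 40 held 7. Cells 6, 7, 10, 11, 14, 16, 25 and 38 also held 8 at that value, so these 3 cells did not stand apart there. The 31 cells that held a member other than Fmod became 44 above 0, 44 at 1, 40 at 3 and 20 at 7, and 36 by the second count. Each member's share of cells was set against the Clopper-Pearson interval of its main count. It fell outside for 9 of 9 members above 0, 8 at a log2 value of 1, 4 at 3 and 3 at 7. By the second count it did so for 1 member (Mkx, 13 cells). Counts within the interval also changed: by the second count Fmod went from 23 to 17 cells and Thbs4 from 14 to 18. At 7, Comp went from 7 to 4 cells and Chad from 8 to 4. Of the 15 symbols most like the score, 2 were shared with a list by Spearman's rho, 6 without a filter on low values and 9 with values under 5 set to 5. The score without Fmod shared 14 and a pseudocount of 0.1 shared 13. Leaving out the cell with the highest score, cell 17, shared 6. In alternatives chosen after seeing the data, leaving out cell 8 shared 11, leaving out cell 40 shared 5 and leaving out cells 8, 17 and 40 shared 0, so the list rests on these cells. Ptx4 was not in the list by Spearman's rho, and, held by 3 cells, it drops under the filter of 3 cells when 1 of them is left out. Of 161 list genes measured, 39 were held by at least 22 cells, and 80 at a log2 value of 1 and 21 at 7. Of all symbols, 5.25% were held by at least 22 cells at the threshold of 5, and the share at 1 and 7 was not computed. The lists were chosen with earlier results known, so nothing is read from the difference.

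No paired analysis was possible because the cells form 1 group. The labels tie no cell to an animal, so the spread between animals is unknown. Depth is unknown, so a value of 0 is only a listed 0, and intervals cover counting error only. Values had been forced to a shared distribution, so amounts of RNA per cell cannot be compared.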
